A study of Mus musculus with 16 samples.

Results

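The genes described here encode the enzymes, scaffolds and readers through which lysine acetylation of histones is written, removed and recognised. The set was a fixed list of 46 mouse genes, chosen by name with earlier results of these data known. On the Illumina mouse BeadChips used, 40 of the 46 had a named probe, and 37 of these were tested because their probe was detected on at least 4 of the 16 arrays. They are 37 of the 8833 named genes tested. Hdac9, Hdac11 and Sin3b had a probe but were detected on 1, 0 and 3 arrays and were not tested. Kat6a, Trrap, Ncor1, Rbbp4, Brd3 and Brd7 are not analysed here. Where several probes read a gene, its brightest probe on average over all arrays represents it.

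Acetyltransferases such as Kat2a (GCN5) and p300 place acetyl groups on histones and other proteins and favour transcription. Class I, II and IV deacetylases and the NAD-dependent sirtuins remove them. Some of the deacetylases do so as parts of corepressor complexes built on NCoR, SIN3, NuRD (nucleosome remodelling and deacetylase) or CoREST scaffolds. Bromodomain proteins bind acetylated histones. In acute myeloid leukemia, the fusion protein AML1-ETO joins the DNA-binding part of RUNX1 to ETO, a protein known to bind NCoR, SIN3A and deacetylases, while c-Myb, a transcription factor that blood progenitors need, works through the acetyltransferase p300.

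RNA came from c-Kit-positive mouse bone marrow cells, a population rich in blood progenitors, that had been enriched on beads and transduced with a retrovirus. The donors were wild-type C57Bl/6 mice or Booreana mice, which carry a mutation of Myb known to weaken the binding of c-Myb to p300. The labels give 4 Booreana mice of 8 weeks and age-matched C57Bl6 mice. The virus was MSCV-I-GFP, the control vector with green fluorescent protein alone, or MSCV-AML1-ETO9a-I-GFP, which adds AML1-ETO9a, a short splice form of the fusion. All cells of all groups were kept in fetal calf serum with IL-3, IL-6 and SCF and at 48 hours were sorted as positive for both green fluorescence and c-Kit, so every group consists of virus-carrying cultured cells. This gave 4 groups of 4 arrays: control and AML1-ETO9a cells of the wild-type, and the same pair of the Booreana genotype. The labels do not tie an array to an animal, so the p-values reflect only array-to-array spread, which may be partly technical. In bulk samples fewer cells of a type and less RNA per cell cannot be told apart.

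All levels below are normalized log2 intensities, and a difference of 1 is a 2-fold change. Values after ± are standard errors of the limma fit unless SD is written, with n = 4 arrays per group. A gene was called changed when limma's p, after Benjamini-Hochberg adjustment across the 12760 probes tested, was under 0.05. Precision is limited by the number of arrays. Median deposited intensities of the arrays lay between 189 and 250. Booreana control replicate 2 stood apart: 39.5% of its probes were detected, against 43.3% to 46.7% on the others, and its mean correlation with the other arrays was 0.845, against 0.931 to 0.955. It remained in every comparison, and values without it are given beside several of the members it moved. Kit, the gene of the sorting marker, is not analysed here. Of the progenitor markers, Cd34, Gata2, Meis1 and Spi1 were detected on all 16 arrays, Hoxa9 on 8, and Flt3 and Erg on none.

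Only 1 of the 37 genes was called in any comparison: Hdac10, a deacetylase best known for acting on acetylated polyamines. With AML1-ETO9a in wild-type cells 1 of 37 genes was called, a rise of Hdac10, against 4.32% of all probes tested. In Booreana cells AML1-ETO9a against the control vector gave 0 of 37 (1.65% of all probes). Between Booreana and wild-type cells with the control vector 1 of 37 was called, again Hdac10 and again higher (6.35% of all probes), and with AML1-ETO9a 0 of 37 (3.74%). The difference between the AML1-ETO9a responses of Booreana and wild-type cells gave 0 of 37 (0.0862%). Called counts of 0 or 1 in 37 are too few to set the members apart from all probes tested. At an unadjusted p under 0.05, limma gave 2, 2, 4, 1 and 3 of the 37 genes in the 5 comparisons, in the same order. That is 5.41%, 5.41%, 10.8%, 2.7% and 8.11% of the members, where all probes tested gave 13.4%, 12.3%, 16.9%, 11.6% and 6.66%. Without Booreana control replicate 2 these counts were 3, 1, 2, 1 and 2 of 37, where all probes gave 16.4%, 10.9%, 16.3%, 14.7% and 6.31%. The comparisons share arrays with each other, so their counts are not independent.

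The median differences were small, among the members as over all probes tested. With AML1-ETO9a in wild-type cells the median log2 difference of the members was -0.04 (all probes tested, -0.00) and ranged from -1.14 to 1.27. In Booreana cells the same comparison had a median of 0.10 (all probes, -0.03), from -0.76 to 1.34. Booreana minus wild-type had a median of -0.12 with the control vector (all probes, 0.01) and 0.00 with AML1-ETO9a (all probes, -0.03), over ranges of -1.39 to 1.32 and -0.57 to 1.13. The median absolute difference was 0.189, 0.263, 0.301 and 0.114 in these 4 comparisons, beside 0.220, 0.260, 0.273 and 0.215 for all probes tested. Several of these values moved without Booreana control replicate 2. The median of the members was then -0.03 in the Booreana response and -0.01 between control cells, with ranges of -0.54 to 0.45 and -0.75 to 1.00, and 10 and 6 of the 37 genes changed sign. The median absolute difference was 0.182 in the Booreana response (all probes, 0.204) and 0.177 between control cells (all probes, 0.225).

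The data bound most of these differences. The 95% interval of the difference lay within 1 in either direction for 26 of the 37 genes in the wild-type response, 23 in the Booreana response, 23 between genotypes with the control vector and 25 with AML1-ETO9a. All probes tested gave 63.7%, 62.1%, 59.3% and 64.9%. Without Booreana control replicate 2 the counts were 31, 31, 29 and 32. For the difference between the responses only 14 of 37 intervals were that narrow (35.3% of all probes), and 22 without that array. A p that missed the threshold therefore does not show equal levels, least of all for the difference of the responses.

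**Figure D1:**
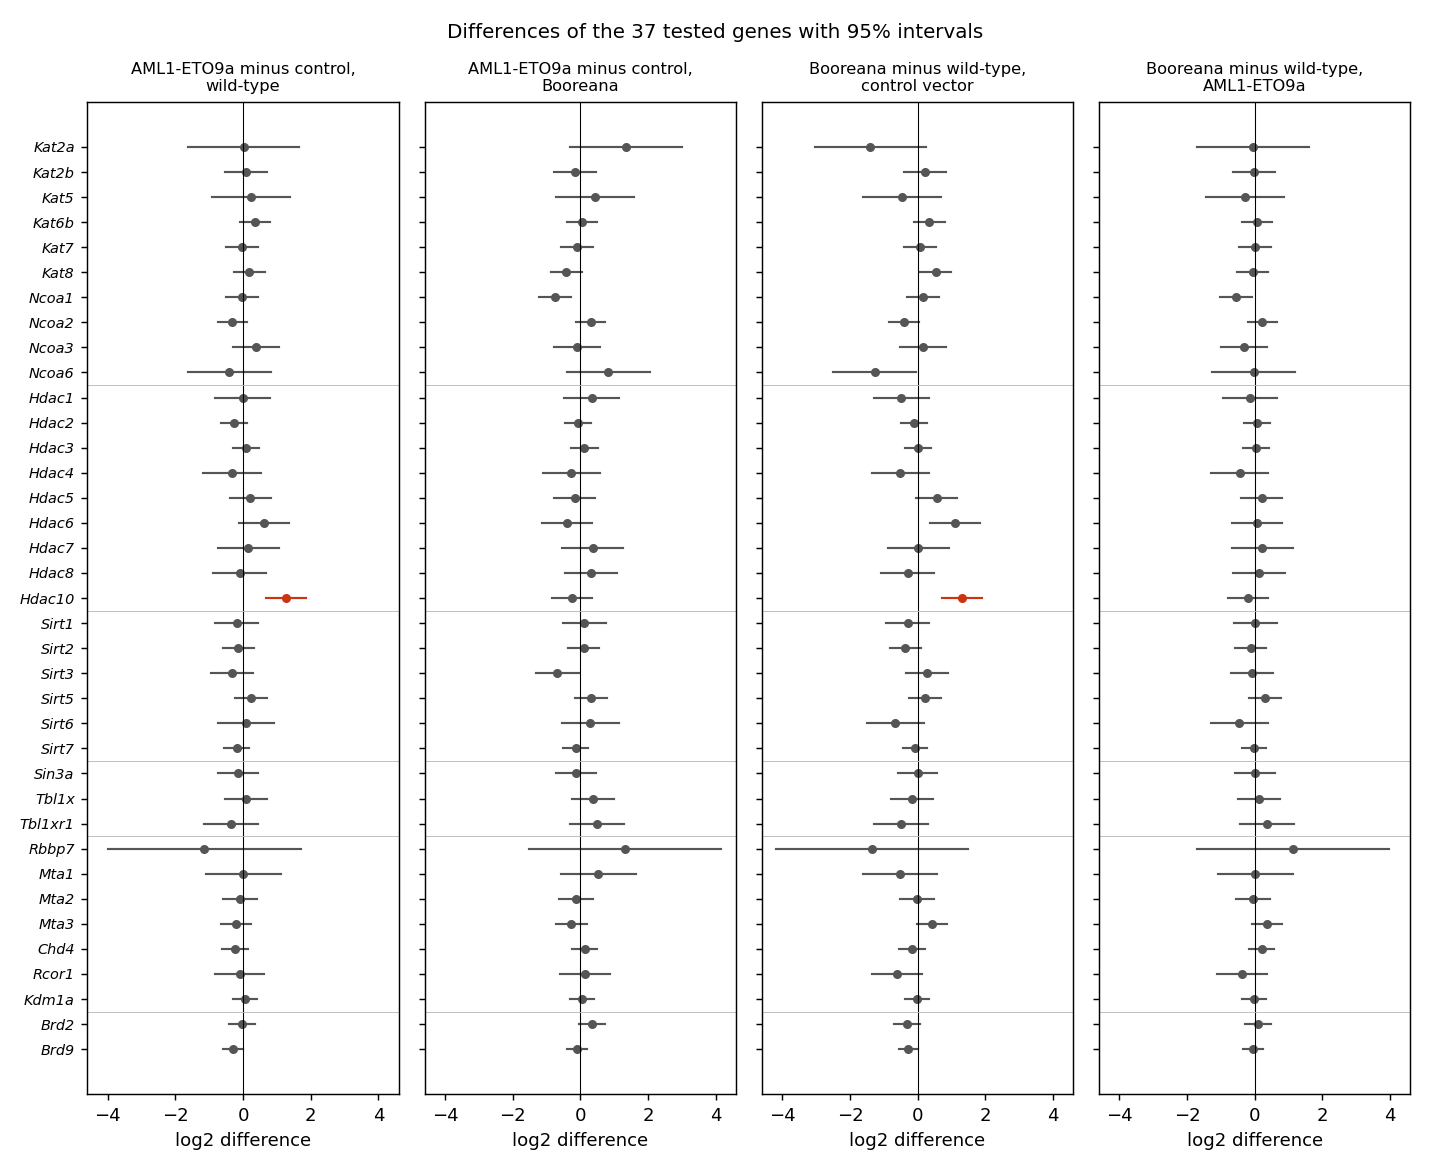
Log2 difference of each of the 37 tested genes in 4 comparisons, with points for the estimate and bars for its 95% interval. Rows are ordered by role from acetyltransferases at the top to acetyl readers at the bottom, and red marks adjusted p under 0.05, which Hdac10 alone reaches, in the wild-type response and between control cells.

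Acetyltransferases and coactivators came first by role. Of 12 listed, 10 were tested: the catalytic Kat2a and Kat2b of the SAGA and PCAF complexes, Kat5 (Tip60), Kat6b, Kat7 and Kat8 of the MYST family, and the nuclear receptor coactivators Ncoa1, Ncoa2, Ncoa3 and Ncoa6. None was called in any of the 5 comparisons. Differences in wild-type cells with AML1-ETO9a ran from -0.41 for Ncoa6 to 0.39 for Ncoa3.

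Kat2a, taken as the member of this class with the highest mean, gave 10.53, 10.06, 10.05 and 9.96 on wild-type control replicates 1 to 4. It gave 9.99, 10.06, 10.32 and 10.28 with AML1-ETO9a. In Booreana cells it gave 9.86, 5.11, 9.97 and 10.10 with the control vector and 10.13, 10.21, 10.18 and 9.88 with AML1-ETO9a. On 15 of 16 arrays Kat2a thus stayed between 9.86 and 10.53, and on Booreana control replicate 2 it was not detected. Its Booreana minus wild-type difference with the control vector was -1.39 ± 0.78 (adjusted p = 0.407) and -0.17 without that array. Its Booreana response was 1.34 ± 0.78 (adjusted p = 0.526) and 0.13 without it.

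Ncoa1, a p160 coactivator of nuclear receptors, was singled out after its values were seen. Wild-type control arrays gave 7.95, 8.34, 8.16 and 7.98, and wild-type AML1-ETO9a arrays 8.16, 8.14, 8.14 and 7.85. Booreana control arrays gave 8.04, 8.92, 7.75 and 8.36, and Booreana AML1-ETO9a arrays 7.37, 7.32, 7.84 and 7.49. All 4 Booreana AML1-ETO9a values lay below all 4 of wild-type AML1-ETO9a and overlapped those of Booreana control. The AML1-ETO9a response in Booreana cells was -0.76 ± 0.22 (adjusted p = 0.116) and -0.54 without Booreana control replicate 2 (adjusted p = 0.228). Booreana minus wild-type with AML1-ETO9a was -0.57 ± 0.22 (adjusted p = 0.273), and the wild-type response was -0.04 ± 0.22. Across the members, this was the 1 gene of 37 whose arrays did not overlap between genotypes with AML1-ETO9a (2.7%), where 9.26% of all probes did not.

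Ncoa6, another coactivator, had 1 probe at 4.91 on Booreana control replicate 2 and between 7.67 and 8.94 on the other 15 arrays. Its control-vector difference between genotypes was -1.27 ± 0.58 (adjusted p = 0.274), and -0.41 without that array. A second tested Ncoa6 probe stood at 5.28 on that array and gave -1.19 with it and -0.57 without it. Kat8, the acetyltransferase of the MSL and NSL complexes, differed by 0.53 ± 0.21 in the same comparison (adjusted p = 0.196), and by 0.32 without that array (adjusted p = 0.443). Its Booreana control values were 9.49, 10.30, 9.52 and 9.38, all above the wild-type control values of 9.27, 9.02, 8.91 and 9.37. The margin was 0.02 or less between the closest arrays, and the highest value again came from replicate 2. Ncoa2 was detected on 4 arrays, 2 in wild-type control and 2 in Booreana AML1-ETO9a cells, so its differences rest partly on background.

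Of 11 deacetylases of classes I, II and IV, 9 were tested. Hdac10, the only member called, gave 5.98, 6.35, 6.48 and 6.42 on the wild-type control arrays. It gave 7.71, 7.50, 7.61 and 7.47 in wild-type AML1-ETO9a cells. It gave 7.38, 8.60, 7.63 and 6.88 in Booreana control and 7.11, 7.47, 7.27 and 7.67 in Booreana AML1-ETO9a cells. Every wild-type control array thus lay below every array of the other 3 groups, which overlapped each other.

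In fold terms, Hdac10 rose 2.42-fold in wild-type cells that carried AML1-ETO9a (1.27 ± 0.28, adjusted p = 0.0133, higher on 4 of 4 arrays). It was 2.50-fold higher in Booreana than in wild-type control cells (1.32 ± 0.28, adjusted p = 0.0072), and 1.00 on the log2 scale without Booreana control replicate 2, where it was still called (adjusted p = 0.00623). In Booreana cells the response to AML1-ETO9a was -0.24 ± 0.28 (95% interval -0.83 to 0.34, adjusted p = 0.745), and 0.08 without that array. With AML1-ETO9a the genotypes differed by -0.20 ± 0.28 (95% interval -0.78 to 0.39, adjusted p = 0.939). The test of the difference between the responses gave -1.52 ± 0.39 and missed the threshold (adjusted p = 0.266), so different responses in the genotypes are not shown. It passed with limma's array weights (-1.35, adjusted p = 0.0202).

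The wild-type call of Hdac10 depended on the treatment of the intensities. It ended without background correction (0.53, adjusted p = 0.0602), without normalization between arrays (1.36, adjusted p = 0.0682) and with the authors' processed values (0.34, adjusted p = 0.0996), always with the same direction. The call between control cells held under these settings (0.59, 1.38 and 0.39, adjusted p = 0.0267, 0.0421 and 0.0414) and ended when only those 8 arrays entered the fit (1.32, adjusted p = 0.078). One probe reads Hdac10, so no second probe checks it.

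Marker levels of several blood cell types also differed between the groups, given here as sums of linear normalized intensity over each list's tested genes. The 10 neutrophil genes summed to 444000 to 461000 in wild-type control, 198000 to 298000 in wild-type AML1-ETO9a, 116000 to 254000 in Booreana control and 135000 to 245000 in Booreana AML1-ETO9a arrays. They were thus highest where Hdac10 was lowest, and 2 of the 10 fell in the wild-type response and 4 of 10 between control cells. The 4 tested monocyte and macrophage genes of 8 gave 2360 to 3170, 8130 to 10700, 4680 to 5510 and 8310 to 12500 in the same order, with Ccr2 and Msr1 not detected on any array. The 4 tested megakaryocyte genes of 5 gave 637 to 1940, 3050 to 7430, 3620 to 7450 and 4630 to 9900. The sums of both lists were lower on all wild-type control arrays than on all others, as Hdac10 was. By gene, 3 of the 4 monocyte genes rose in the wild-type response (Cd14, Adgre1 and Mrc1, with Fcgr1 at -0.38), and 1 of 4 between control cells. Of the megakaryocyte genes Pf4 and Ppbp rose in the wild-type response, with Itga2b at -0.71 and Gp9 at -0.44, and 2 of 4 rose between control cells. The 5 tested progenitor genes of 9 gave 2640 to 5580, 2630 to 5820, 10500 to 21400 and 7730 to 11100, and the 3 tested erythroid genes of 5 gave 246 to 761, 228 to 449, 5270 to 8850 and 4150 to 11900. Both sums were higher in Booreana cells with either virus. Among the progenitor genes Cd34, a surface marker, was lower on all wild-type control arrays than on all others, as Hdac10 was, and the lowest of those others gave 7.49. Cd34 rose 6.06-fold in the wild-type response (adjusted p = 5.34e-05) and was 3.75-fold higher in Booreana than in wild-type control cells (adjusted p = 0.000521). The other tested progenitor genes differed: in the wild-type response Meis1 was at 0.74, Gata2 at -0.31, Hoxa9 at -0.42 and Spi1 at -0.47. Between control cells Meis1 was at 2.54, Gata2 at 2.36, Hoxa9 at -0.06 and Spi1 at -0.51. The 6 mast cell and basophil genes (12900 to 34100, 23100 to 42200, 27000 to 59200 and 45700 to 84800) and 4 eosinophil genes (15200 to 33600, 3880 to 9110, 27700 to 42300 and 11700 to 25600) overlapped between wild-type control and at least 1 other group. No B cell or T cell marker was tested, and Pax5, Ebf1, Cd3e, Cd4 and Cd8a were detected on no array. Markers also changed where Hdac10 was not called. In the Booreana response 2 of 10 neutrophil genes fell, 1 of 4 monocyte genes and 0 of 4 megakaryocyte genes rose, and Cd34 rose 2.41-fold (limma adjusted p = 0.0349). Between genotypes with AML1-ETO9a 4 of 10 neutrophil genes and 1 of 4 monocyte genes fell, and 1 of 4 megakaryocyte genes rose. The part of cell makeup in the Hdac10 result was not tested.

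**Figure D2:**
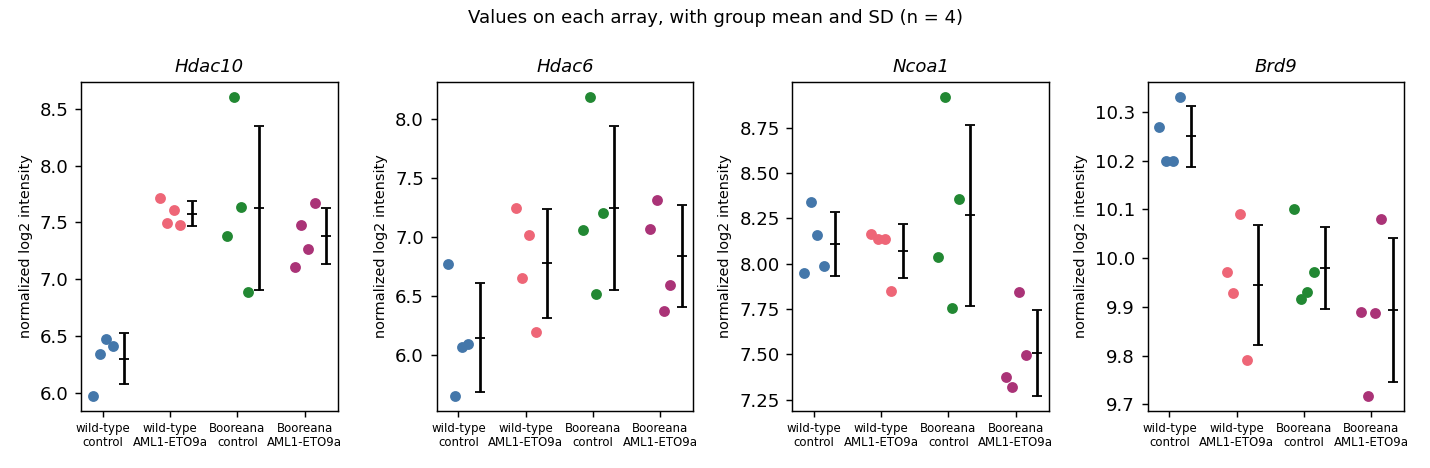
Normalized log2 intensity of Hdac10, Hdac6, Ncoa1 and Brd9 on each array (points), with group mean and SD beside them (n = 4); each panel has its own vertical scale. The wild-type control arrays of Hdac10 lie below all others, those of Brd9 lie above all others, and the groups of Hdac6 overlap.

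Hdac6, a mostly cytoplasmic deacetylase of tubulin, came next to the threshold. Wild-type control arrays gave 6.77, 5.66, 6.07 and 6.10, and wild-type AML1-ETO9a arrays 7.25, 6.65, 7.01 and 6.20. Booreana control arrays gave 7.06, 8.18, 6.52 and 7.20, and Booreana AML1-ETO9a arrays 7.07, 7.31, 6.37 and 6.59. The groups overlapped in every pair. Booreana minus wild-type with the control vector was 1.09 ± 0.35 (adjusted p = 0.08), 1.34 without Booreana control replicate 3 (adjusted p = 0.0325) and 0.78 without replicate 2 (adjusted p = 0.201). A second, dimmer Hdac6 probe, detected on 7 arrays, gave 0.66 (adjusted p = 0.427).

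Several class I deacetylases are catalytic subunits of the corepressor complexes that ETO is known to bind. Hdac2, the deacetylase with the highest mean, gave 12.14, 12.13, 12.25 and 12.07 in wild-type control and 12.03, 11.90, 11.57 and 12.05 in wild-type AML1-ETO9a cells. In Booreana cells it gave 12.21, 12.00, 12.28 and 11.64 with the control vector and 12.29, 11.92, 11.90 and 11.73 with AML1-ETO9a. The wild-type groups did not overlap but came within 0.02 of each other, and the response was -0.26 ± 0.18 (adjusted p = 0.682). Hdac3, the catalytic subunit of NCoR complexes, had a wild-type response of 0.09 ± 0.18 (95% interval -0.30 to 0.48) and a Booreana response of 0.12 ± 0.18 (-0.27 to 0.51). Hdac1 had responses of -0.01 ± 0.38 and 0.34 ± 0.38, and Hdac8 of -0.11 ± 0.37 and 0.31 ± 0.37. Hdac8 was detected on 2 of 4 Booreana control arrays, so its value there rests partly on background. Without Booreana control replicate 2 the Booreana responses were 0.00 for Hdac3, -0.13 for Hdac1 and 0.18 for Hdac8. Of the class IIa enzymes, which shuttle between nucleus and cytoplasm, Hdac4, Hdac5 and Hdac7 lay between -0.33 and 0.21 in wild-type and between -0.26 and 0.36 in Booreana cells, the latter -0.13 to 0.24 without that array.

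All 6 listed sirtuins were tested and none was called. Sirt7, a nucleolar sirtuin and the member with the highest mean, gave 12.63, 12.83, 13.00 and 13.08 in wild-type control and 12.50, 12.76, 12.90 and 12.61 in wild-type AML1-ETO9a cells. It gave 12.75, 12.91, 13.06 and 12.53 in Booreana control and 12.47, 12.63, 12.89 and 12.71 in Booreana AML1-ETO9a cells. All groups overlapped, and the 95% interval of the wild-type response was -0.56 to 0.17. Sirt3, the main mitochondrial deacetylase, had the lowest value of the sirtuins in both responses, at -0.32 ± 0.29 and -0.67 ± 0.29 (adjusted p = 0.825 and 0.355). The Booreana value was -0.40 without Booreana control replicate 2 (adjusted p = 0.691). The nuclear sirtuins Sirt1 and Sirt6 differed by -0.19 and 0.09 in wild-type cells, and Sirt6 was another gene not detected on Booreana control replicate 2 (5.26, where the other arrays gave 6.74 to 7.85).

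The NCoR and SIN3 scaffolds and partners were represented by 3 tested genes of 5. Sin3a, the scaffold of the SIN3 complex, gave 10.50, 10.94, 11.24 and 11.43 in wild-type control and 10.58, 10.77, 10.65 and 11.53 in wild-type AML1-ETO9a cells. It gave 11.23, 10.61, 10.95 and 11.33 in Booreana control and 11.21, 10.30, 11.10 and 10.99 in Booreana AML1-ETO9a cells. All groups overlapped, with a wild-type response of -0.15 ± 0.27 and a Booreana response of -0.13 ± 0.27, or -0.27 without Booreana control replicate 2. Tbl1x and Tbl1xr1, WD40 subunits that NCoR complexes share, had wild-type responses of 0.10 ± 0.29 and -0.37 ± 0.37 and Booreana responses of 0.37 ± 0.29 and 0.48 ± 0.37. Tbl1xr1 was detected on 2 of 4 wild-type AML1-ETO9a arrays, so its value there rests partly on background.

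Among NuRD and CoREST subunits 7 of 8 were tested. Kdm1a, the histone demethylase LSD1 of CoREST and the member with the highest mean, gave 11.60, 11.78, 11.52 and 11.61 in wild-type control and 11.83, 11.68, 11.35 and 11.86 in wild-type AML1-ETO9a cells. It gave 11.87, 11.46, 11.50 and 11.59 in Booreana control and 11.96, 11.51, 11.69 and 11.46 in Booreana AML1-ETO9a cells. The groups overlapped in all pairs, and the 95% interval of the wild-type response was -0.31 to 0.41. Rcor1, its CoREST partner, was at -0.61 ± 0.35 between control cells (adjusted p = 0.416). The NuRD subunits Mta1, Mta2 and Mta3 had wild-type responses of 0.01, -0.09 and -0.21. Chd4, the remodelling ATPase of NuRD, was at -0.24 ± 0.18 with its brightest probe.

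Rbbp7, a histone-binding WD40 protein shared by NuRD, SIN3 and other complexes, varied most between arrays of 1 group. Its probe gave 8.31, 10.98, 10.68 and 11.02 in wild-type control and 5.59, 10.26, 9.19 and 11.37 in wild-type AML1-ETO9a cells. It gave 11.42, 4.98, 11.24 and 7.99 in Booreana control and 11.13, 8.94, 10.72 and 10.15 in Booreana AML1-ETO9a cells. Values under 9 fell on 2 Booreana control arrays and on 1 array of each other group, and the groups overlapped. The within-group SD was 2.13, at percentile 99.9 of all probes tested, and 1.76 without Booreana control replicate 2. Without that array the next largest among the members was 0.67, for Hdac7.

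With such a spread, the Rbbp7 differences had wide intervals. Its wild-type response was -1.14 ± 1.34 (95% interval -3.98 to 1.70) and the difference of the responses was 2.47 ± 1.89 (adjusted p = 0.814), or 1.16 without Booreana control replicate 2. Its Booreana response was 1.33 with that array and 0.02 without it. A pair of further Rbbp7 probes followed the first over the 16 arrays (Pearson's r 0.995 and 0.984, rho 0.996 and 0.9). Without the 2 arrays farthest from the median r was 0.995 and 0.966. The remaining probe did not (r -0.449, rho -0.332), staying between 5.95 and 7.44, and gave a wild-type response of 0.20. These are descriptions over arrays that share normalization. Which transcripts each probe reads is not analysed here. One of 3 tested Chd4 probes was also low on some of these arrays: it gave 4.89 on Booreana control replicate 4, 5.07 on replicate 2 and 5.98 on wild-type AML1-ETO9a replicate 1, where the brightest Chd4 probe gave 10.62, 10.10 and 10.31. Among probes of other members, r with the Rbbp7 probe was over 0.8 for this Chd4 probe (0.846), Sirt1 (0.843) and Hdac8 (0.807). Without the 2 farthest arrays it was 0.826, 0.618 and 0.931.

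**Figure D3:**
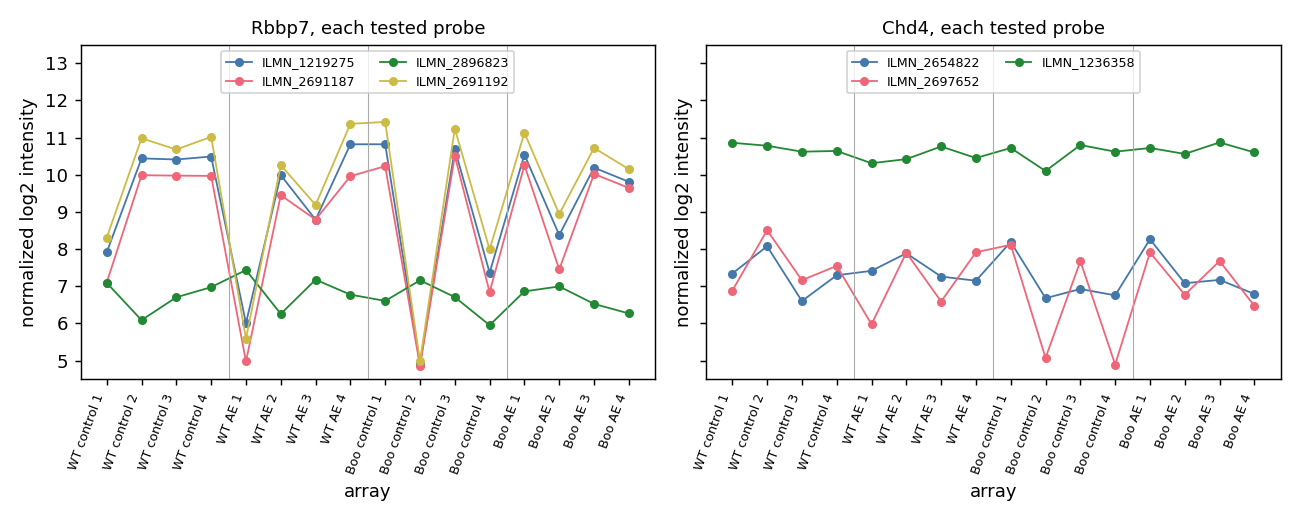
Normalized log2 intensity of the 4 tested Rbbp7 probes and the 3 tested Chd4 probes on the 16 arrays; vertical lines separate the groups, and lines join the values of 1 probe only to guide the eye, since replicates have no order. Of the Rbbp7 probes, 3 fall together on the same arrays and ILMN_2896823 stays between 5.95 and 7.44.

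The acetyl readers tested were Brd2, a BET protein that binds acetylated histone H4, and Brd9, a bromodomain subunit of a BAF remodelling complex. Brd2 gave 12.60, 12.49, 12.42 and 12.65 in wild-type control and 12.63, 12.31, 12.41 and 12.67 in wild-type AML1-ETO9a cells. It gave 12.33, 11.74, 12.26 and 12.63 in Booreana control and 12.55, 12.70, 12.50 and 12.63 in Booreana AML1-ETO9a cells. The groups overlapped, and the lowest value was again that of Booreana control replicate 2. Brd9 had the smallest within-group SD of the 37 genes, 0.111 (percentile 0.29 of all probes tested). It gave 10.27, 10.20, 10.20 and 10.33 in wild-type control cells and between 9.72 and 10.10 on the other 12 arrays, so wild-type control lay above all others. The differences were small and not called: -0.30 ± 0.14 in the wild-type response (adjusted p = 0.346) and -0.27 ± 0.14 between control cells (adjusted p = 0.354).

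Non-overlap by itself was no more common among the members than among all probes. In the wild-type response 3 of 37 genes did not overlap, Hdac10 above and Hdac2 and Brd9 below (8.11%, against 11.3% of all probes). In the Booreana response 0 of 37 did not (6.58% of all probes). Between control cells 4 of 37 did not, Kat8 and Hdac10 above and Ncoa6 and Brd9 below (10.8%, against 11.1%).

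Booreana control replicate 2 shaped several of the values above. Of 30 members detected on all the other 15 arrays, 5 were not detected on it (16.7%): Kat2a, Kat5, Sirt6, Ncoa6 and Mta1. Over all probes 735 of 8791 (8.36%) were lost in this way. No other array lost more than 1 member. Leaving out Booreana control replicate 2 moved the control-vector difference between genotypes from -0.47 to 0.33 for Kat5 and from -0.52 to 0.21 for Mta1. For Sirt6 it moved from -0.66 to -0.13. On this array 12 of the 37 genes lay over 1 from their median over the 16 arrays, 8 below and 4 above, and on each other array at most 3 did. The median within-group SD of the members was 0.416 with it and 0.302 without it, where all probes gave 0.399 and 0.350.

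**Figure D4:**
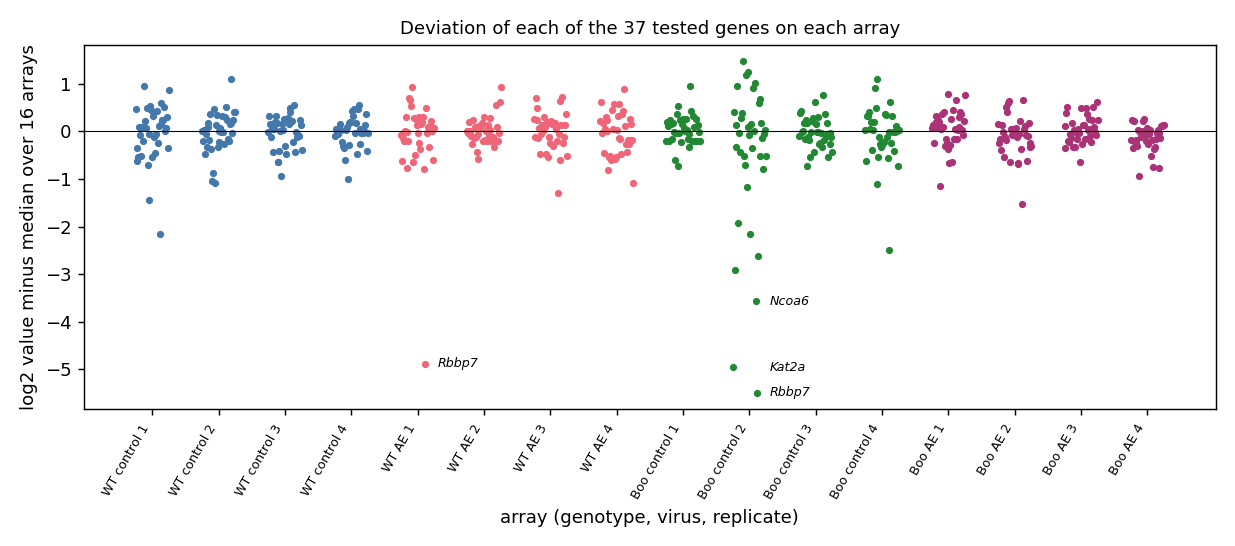
Deviation of each of the 37 tested genes from its own median over the 16 arrays, in log2 units, 1 column of points per array (AE stands for AML1-ETO9a, Boo for Booreana, WT for wild-type). Genes more than 3 below their median are named, and all but 1 of these points lie on Booreana control replicate 2.

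Further subunits of the same complexes were counted in the same way. Of 78 other genes of histone acetylation and corepressor complexes, listed by name, 63 had a probe and 51 were tested. Limma called 0 of 51 higher and 0 of 51 lower in each of the 5 comparisons. Of all probes tested it called 4.32%, 1.65%, 6.35%, 3.74% and 0.0862% in either direction. At an unadjusted p under 0.05 the counts were 3, 6, 2, 0 and 1 of 51, where all probes gave 13.4%, 12.3%, 16.9%, 11.6% and 6.66%. Without Booreana control replicate 2 they were 4, 4, 2, 2 and 1 of 51, where all probes gave 16.4%, 10.9%, 16.3%, 14.7% and 6.31%. Medians were -0.03 in the wild-type response, -0.07 in the Booreana response, 0.01 between control cells and -0.05 with AML1-ETO9a, beside -0.00, -0.03, 0.01 and -0.03 for all probes tested. The single values ran from -0.61 to 0.66 in the wild-type response and from -0.73 to 0.90 in the Booreana response, or -0.57 to 0.42 without that array. Of the 17 further tested probes of the members themselves, 0 were called in any comparison.

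Promoters were searched for the motif of RUNX factors, which AML1-ETO9a also binds, and that of c-Myb, since both proteins differ between the groups. The RUNX letters were TGTGGT and TGCGGT and the MYB letters CAACGG or CAACTG or TAACGG or TAACTG, on both strands, in the 250 bases upstream of each start in RefSeq's GRCm38.p6 annotation. The ends of a RUNX and a MYB match can share letters. RefSeq windows were found for 39 of the 46 genes (55 windows). A RUNX match was in 11 of 55 windows (20%), beside 6107 of 32851 windows of all genes (18.6%), and a MYB match in 11 of 55 (20%), beside 7773 of 32851 (23.7%). A match describes letters only. Hdac10, the only member called, was not among the members with a match of either kind, which a member without a window could not have. Whether Hdac10 was among the 39 genes with a window is not reported here, so its promoter may not have been searched. The windows of Hdac6, the member nearest to the threshold that has one, and of Rbbp7, the member with the largest spread, are shown 5′ to 3′ on the strand of the gene, with the match in capitals. The Hdac6 window is chrX:7947890-7948139 on the minus strand and holds the RUNX letters TGTGGT beginning 230 bases upstream of the start. The Rbbp7 window is chrX:162760122-162760371 on the plus strand and holds MYB letters on the opposite strand, beginning 36 bases upstream, so that the capitals read CAACGG backwards and complemented.
Hdac6: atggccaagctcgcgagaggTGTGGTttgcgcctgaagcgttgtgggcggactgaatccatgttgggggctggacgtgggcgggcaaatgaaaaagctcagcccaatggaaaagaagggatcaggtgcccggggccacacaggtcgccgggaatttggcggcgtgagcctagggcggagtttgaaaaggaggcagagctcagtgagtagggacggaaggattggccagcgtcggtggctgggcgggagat
Rbbp7: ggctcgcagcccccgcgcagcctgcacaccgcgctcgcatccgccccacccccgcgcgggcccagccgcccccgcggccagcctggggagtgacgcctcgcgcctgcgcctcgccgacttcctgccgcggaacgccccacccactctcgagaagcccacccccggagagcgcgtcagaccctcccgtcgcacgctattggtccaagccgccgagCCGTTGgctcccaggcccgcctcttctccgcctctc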

How the data were processed

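Expression was measured on 16 1-colour Illumina mouse BeadChips, 4 arrays in each of 4 groups taken from the labels. Per the file headers, the deposited table holds, for 25697 probes, intensities before any normalization with their detection p-values, and its lowest intensity of 112 shows that background had not been subtracted. A second deposited table holds the authors' processed values, which match a log2 scale; lumi is named in the submitters' processing notes, without a version, and how they were transformed is not given. It served as an alternative only. Every column fitted its own array's intensities better than any other array's.

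Intensities were corrected with limma's normexp method, taking the negative probes' statistics from the detection p-values and adding an offset of 16. Quantile normalization and log2 transformation followed (limma 3.58.1, R 4.3.3, statmod 1.5.0). A probe was tested if detected at p under 0.05 on 4 or more arrays (12760). Names came from the platform annotation, with 1 symbol for 23978 probes, none for 1719 and 0 symbols updated through gene identifiers. A limma model with 4 group means gave 5 comparisons, and the script was tested on simulated data. The members and lists were chosen with earlier results of these data known. Values on every array are given for called members and for the member of each of 6 role classes with the highest mean; Ncoa1, Ncoa6, Kat8, Hdac6, Rbbp7, Brd9 and the Chd4 probes were chosen after their values were seen.

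Same-numbered arrays deviated together within a genotype (correlations of 0.167 to 0.708 in wild-type and 0.362 to 0.418 in Booreana cells). Between genotypes the correlations ran from -0.614 to 0.329, a range that overlaps that of the wild-type pairs. The main fit used group means without pairing, so the standard errors and p-values of the Results ignore it. Replicate numbers were taken as pairs within a genotype only in an alternative setting, added after the data were seen. The authors' values, other corrections, scalings, filters and offsets, array weights, blocks, fits on the compared groups alone and leaving out each array were the alternatives. Sequences are RefSeq's.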

Additional observations from a re-analysis of the deposited data

Results flagged for a closer look

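A gap test (Dixon's, at 95%) was run on each of the 37 tested genes in each of the 4 groups of 4 arrays, 148 groups in all, of which chance flags about 1 in 20. It marked 13 single values. Booreana control replicate 2 held 6 of them, 5 low and 1 high: Kat2a at 5.11, Kat5 at 5.67, Sirt6 at 5.26, Ncoa6 at 4.91, Hdac1 at 9.2 and, above its group, Kat8 at 10.3. The same array had the lowest share of detected probes, 39.5%.

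Hdac7, a class IIa deacetylase, was marked high on Booreana control replicate 4 (10, where the other arrays of the group gave 8.21 to 8.41) and on Booreana AML1-ETO9a replicate 2 (9.58). Hdac5 was high on that same AML1-ETO9a array (11.2), and Hdac3 on wild-type control replicate 3 (11.8). Wild-type AML1-ETO9a replicate 4 was low for Sirt2 (8.47) and Ncoa1 (7.85). Rbbp7 was low on wild-type control replicate 1 (8.31).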

How the results depend on the processing

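The 5 counts, and changes of Hdac10, Hdac6, Kat2a, Ncoa1 and Rbbp7, were recomputed under 26 or 27 other settings. The count of called members in the wild-type response, 1, became 0 without background correction, without normalization between arrays and with the authors' values. Between control cells the count of 1 became 0 in the fit of only the groups compared and 2 (Hdac6 and Hdac10) without Booreana control replicate 3. For the difference of the responses the count of 0 became 1 (Hdac10) with array weights. The counts in Booreana cells and between genotypes with AML1-ETO9a were 0 under all settings run. The Booreana response of Hdac10 ranged from -0.491 to 0.0808 when single arrays were left out. For the counts, leaving out single arrays gave 1 to 1 in the wild-type response, 1 to 2 between control cells and 0 to 0 in the other 3 comparisons. Hdac10 changed sign in comparisons that it did not pass: Booreana minus wild-type with AML1-ETO9a was 0.0169 without normalization, and the Booreana response was 0.0808 without Booreana control replicate 2. The fit on fewer groups has fewer arrays to estimate the spread; for the other settings the cause was not tested.

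With the replicate block the counts of called members were 1, 0, 1, 0 and 0, as in the fit without it. With replicate numbers paired within a genotype, a setting added after the data were seen, they were 1 and 0 for the responses and 0 for their difference, while over all probes the wild-type count rose from 551 to 959, the Booreana count from 210 to 453 and that of the difference from 11 to 37. Over all probes the wild-type count was also 336 without normalization, 1125 with array weights and 355 without wild-type control replicate 3. The Booreana count was 532 with array weights, 63 in the fit of only those groups and 139 without Booreana control replicate 3. Between control cells 810 became 1289 with array weights and 516 in the fit of only those groups, and with AML1-ETO9a 477 became 739 with array weights. The 11 for the difference ran from 6 (without normalization) to 59 (array weights). Without normalization the median of all probes in the Booreana response moved to 0.10 (from -0.03); median scaling and the authors' values moved none by over 0.1. A BeadChip block was not run, since the labels and headers used here name no chip, and Hdac10 has no other probe to try.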

Other observations

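Mapk11, which encodes the kinase p38 beta, lies near Hdac10 on the chromosome in RefSeq's gene order, 3 places away. Its brighter probe was detected on 0 wild-type control arrays (5.41, 5.69, 5.37 and 5.59) and on 4 wild-type AML1-ETO9a arrays (6.75, 6.64, 6.59 and 6.75). Its wild-type response was 1.17 ± 0.21 (limma adjusted p = 0.00319), and the size of this difference rests partly on background. In Booreana cells it gave 5.60, 6.34, 5.96 and 6.35 with the control vector and 7.09, 6.32, 6.81 and 6.33 with AML1-ETO9a, groups that overlapped (0.58 ± 0.21, adjusted p = 0.232). A second Mapk11 probe was not tested. Of the genes between and beside them, Selenoo and Trabd had wild-type responses of 0.21 ± 0.43 and 0.23 ± 0.31 (adjusted p = 0.953 and 0.906), and Mapk12 was not tested. These neighbours were looked up after the Hdac10 result was known.

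The array pattern of Rbbp7 recurred in probes of many other genes. Over the 16 arrays 295 tested probes had r above 0.9 with it, among them Hnrnpk (0.988) and Hnrnpa2b1 (0.981), which encode RNA-binding proteins, the chaperone gene Hspa8 (0.986) and Nasp (0.984), which encodes a histone chaperone. Of the 247 other named genes among them, 174 had another tested probe at or below 0.9, and for 82 of these every other probe was below 0.5. The median r of those other probes was 0.247. All these values share arrays and normalization, and their cause was not tested.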
